A study of Mus musculus with 16 samples.

Results

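Promoters that carried the histone demethylase LSD1 in vehicle-treated mouse CD8+ T cells, and no LSD1 peak after treatment with an LSD1 inhibitor, are described here. A promoter was a window of 1 kb on either side of a curated RefSeq transcription start site (TSS), 2001 bp in all. Members were chosen by the presence of peaks in the deposited Veh and GSK LSD1 lists: a Veh peak covered at least 1 bp of the window and no GSK peak did. Of 31603 promoter windows of 26180 genes, 1425 windows of 1249 genes were members. They rested on 1146 distinct Veh LSD1 peaks, because neighbouring start sites shared peaks. A further 9714 windows had LSD1 in both lists, 3136 in the GSK list only and 17328 in neither.

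CD8+ T cells came from spleens of OT1 mice, which carry a transgenic T cell receptor for an ovalbumin peptide. The cells were activated with anti-CD3 and anti-CD28 in the presence of IL-2 for 48 h and then expanded with IL-2 for 3 days. One culture condition received 0.5 μM GSK2879552 (GSK), a catalytic inhibitor of LSD1, through activation and expansion, and the other received vehicle (Veh). Chromatin immunoprecipitation followed by sequencing (ChIP-seq) used 6 antibodies. They recognised RNA polymerase II (Pol II), LSD1 itself, acetylated lysine 27 of histone H3 (H3K27ac) and its lysine 4 with 1, 2 or 3 methyl groups (H3K4me1, H3K4me2 and H3K4me3). Each antibody had 1 library per treatment and 1 peak list per library, and 4 input samples had no peak list of their own. With 1 library per group no difference between treatments has a replicate check and no test was made. Wilson 95% intervals cover counting error only and treat windows as independent, which neighbouring start sites are not. A peak list holds only what passed the peak caller, so a window without a peak is not a window without the protein. The age and number of the mice, and which library was read on which of the 2 sequencing platforms, are not given in the sources used here. Fewer cells with LSD1 at a promoter and less LSD1 in each cell cannot be told apart in such lists.

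LSD1, encoded by Kdm1a, removes methyl groups from mono- and dimethylated lysine 4 of histone H3 and does not act on the trimethylated form. It has no DNA-binding specificity of its own and is brought to chromatin with CoREST, histone deacetylases and DNA-binding repressors such as GFI1. H3K4me3 marks the start of most active genes, H3K4me1 and H3K4me2 flank it and mark enhancers, and H3K27ac and Pol II accompany transcription. Promoters fall into CpG-rich promoters, typical of genes used in many tissues, and CpG-poor promoters, typical of genes restricted to a cell type. In T cells LSD1 has been studied as a restraint on memory-like and stem-like states.

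The sequence under the Veh LSD1 summit is shown first, because the members' CpG content differed from that of the promoters that kept LSD1. Each line holds 101 bp centred on the summit, on the plus strand of mm10 (GRCm38.p6). Capitals mark letters of the transcription factor motifs named below where one lies inside these 101 bp. The first 3 lines are the strongest members whose summit lay outside UTRs and whose Veh peak no GSK peak touched. They lie upstream of the lncRNA gene 1700084D21Rik (chr13:113134913-113135013), of Emp3 (chr7:45921816-45921916) and of Tigar (chr6:127109731-127109831). The next 5 belong to T cell genes and were chosen after their values were seen. They lie in the first intron of Itgb7 (chr15:102230994-102231094), of Cd8a (chr6:71374086-71374186) and of Ccr7 (chr11:99154068-99154168), and upstream of Cd8b1 (chr6:71322464-71322564) and Batf (chr12:85686506-85686606). The last lines, upstream of Myc (chr15:61984960-61985060) and Fosb (chr7:19310381-19310481), are members with a CpG-rich promoter and stand for contrast.
1700084D21Rik: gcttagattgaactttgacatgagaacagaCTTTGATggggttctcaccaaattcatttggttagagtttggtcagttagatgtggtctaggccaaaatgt
Emp3: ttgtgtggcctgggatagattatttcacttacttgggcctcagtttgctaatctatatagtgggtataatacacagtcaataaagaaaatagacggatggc
Tigar: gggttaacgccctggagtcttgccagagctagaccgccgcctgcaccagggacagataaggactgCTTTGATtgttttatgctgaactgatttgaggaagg
Itgb7: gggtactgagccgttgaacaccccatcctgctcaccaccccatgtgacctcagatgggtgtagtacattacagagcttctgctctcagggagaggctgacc
Cd8a: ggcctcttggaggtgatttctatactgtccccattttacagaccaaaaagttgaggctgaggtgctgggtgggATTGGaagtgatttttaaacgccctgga
Ccr7: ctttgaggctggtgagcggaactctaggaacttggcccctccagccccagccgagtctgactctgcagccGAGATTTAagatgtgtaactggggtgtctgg
Cd8b1: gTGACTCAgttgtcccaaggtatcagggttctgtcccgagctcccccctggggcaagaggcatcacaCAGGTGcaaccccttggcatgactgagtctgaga
Batf: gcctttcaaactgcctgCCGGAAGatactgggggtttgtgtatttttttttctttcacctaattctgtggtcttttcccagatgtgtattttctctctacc
Myc: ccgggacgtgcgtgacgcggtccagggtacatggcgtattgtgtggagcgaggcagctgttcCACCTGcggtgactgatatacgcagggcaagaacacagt
Fosb: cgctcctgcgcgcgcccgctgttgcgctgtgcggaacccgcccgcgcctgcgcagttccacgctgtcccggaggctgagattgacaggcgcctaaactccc
The first 8 of these sequences held between 0 and 3 CpG dinucleotides each, whereas the Myc sequence held 9 and the Fosb sequence 14. The capitals are the TCF/LEF letters CTTTGAT in 1700084D21Rik and Tigar, the NFY letters CCAAT read on the other strand in Cd8a and a GFI1 core on the other strand in Ccr7. In Cd8b1 they are an AP-1 site and a ZEB E-box, in Batf an ETS site and in Myc a ZEB E-box. A match is a run of letters and not a shown binding site.

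The cells matched their label. H3K4me3 lay at 7 of 7 CD8 T cell marker genes found in the annotation (Cd2, Cd3d, Cd3e, Cd3g, Cd8a, Cd8b1 and Lck) in both treatments, and the last listed marker, Trac, was not found in it. H3K4me3 also lay at 1 of 3 CD4 T cell markers (Zbtb7b), 2 of 6 B cell markers (Cd79b and Ebf1) and 1 of 3 NK cell markers (Eomes) in both treatments. Of 6 myeloid markers, 2 had it in Veh (Cd14 and Spi1) and 1 in GSK. Pol II was found at 0 of the B cell and CD4 T cell markers. The Veh LSD1 list held 21252 peaks and the GSK LSD1 list 19919, and the weakest peaks in both had a -log10 p just above 3. The peak lists hold no read totals. By the unique read pairs that the study lists for each library, Veh was the deeper library for H3K27ac, by far, and for H3K4me2 and slightly for LSD1. GSK was the deeper one for Pol II and H3K4me1 and slightly for H3K4me3. The part of depth in the differences between treatments was not tested.

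Members made up 12.8% of the 11139 promoters with LSD1 in Veh (95% interval 12.2 to 13.4), or 4.51% of all promoters tested. LSD1 in the other direction, in GSK only, was found at 3136 promoters, 9.92% of all and 24.4% of the 12850 promoters with LSD1 in GSK (interval 23.7 to 25.2). So fewer promoters lost a called LSD1 peak than gained one, although the GSK list was shorter. Both counts are fixed by the rule and serve as description.

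The members carried weaker LSD1 peaks than the promoters that kept LSD1. Their highest fold enrichment over local background in Veh, as the peak caller gives it, ranged from 2.18 to 10.98 with a median of 3.93 and quartiles of 3.43 and 4.50. For the histone marks below, the fold is a mean over a broad region, so folds are comparable within an antibody and not between antibodies. Promoters with LSD1 in both lists had a median of 4.54 in Veh and 5.24 in GSK. The median -log10 p was 5.78 at members and 7.77 at promoters that kept LSD1. The groups overlapped over nearly the whole range of the members, and the strongest peak of the kept group reached a fold of 21.2.

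The share of Veh-bound promoters that were members fell with the strength of the Veh peak. It was 42.0% for peaks with a -log10 p of 3 to 4 (169 of 402), 27.2% for 4 to 5 and 16.6% for 5 to 6. From 10 to 15 it was 5.69%, and at 20 or above it was 2.10% (12 of 572). The same shape held in the other direction. Of promoters with a GSK LSD1 peak of -log10 p 3 to 4, 69.4% had no Veh peak, and at 20 or above 0.862% had none. A peak near the calling limit was thus often found in one list and not in the other, whichever list came first.

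**Figure D1:**
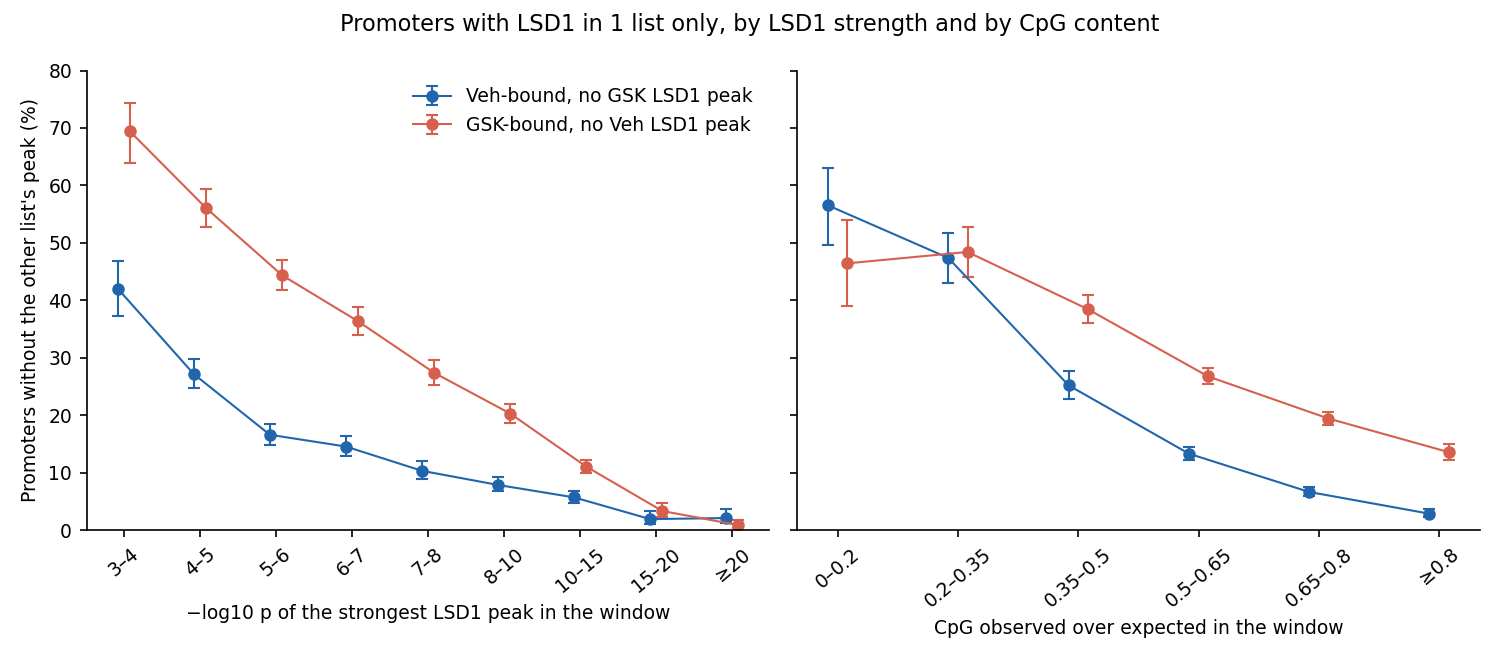
The left panel plots the percent of Veh-bound promoters without a GSK LSD1 peak (blue) and of GSK-bound promoters without a Veh LSD1 peak (red) against the -log10 p of the strongest LSD1 peak in the window; the right panel plots the same shares against the observed over expected CpG of the window. Bars are Wilson 95% intervals. In both directions the share falls from the weakest to the strongest peaks, and from CpG-poor to CpG-rich promoters it falls from 56.5% to 2.85% for the Veh-bound promoters.

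At 49 of the 1425 members (3.44%, interval 2.61 to 4.52), the edge set, a Veh peak in the window reached past it and a GSK peak overlapped that same Veh peak outside the window. All 6 members with the highest Veh -log10 p were of this kind. They were Ccdc102a, the lncRNA gene A630001O12Rik, Gm51295, which is annotated as a microRNA gene, Hoatz, Csf2ra and the lncRNA gene Tug1. At Ccdc102a (peak chr8:94919059-94919555), the Veh fold was 9.50 and the -log10 p 46.5, the peak covered 40 bp of the window and the nearest GSK peak began 54 bp beyond it. At Gm51295 the fold was 10.98 and the overlap 1 bp. At Csf2ra, a receptor chain for GM-CSF, the fold was 6.80 and the GSK peak lay 121 bp away, while Veh LSD1 peaks covered 330 bp of the window.

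Other strong members had no GSK peak nearby. Zfp383, a KRAB-type zinc finger gene (peak chr7:29908403-29908844), reached a Veh fold of 9.52 and 28.5 in -log10 p, the highest outside the edge set, and the nearest GSK LSD1 peak lay 44004 bp from its window. Around its start site H3K4me3 was at a fold of 6.32 in Veh and 6.25 in GSK, and H3K4me1 had no peak in Veh and a fold of 3.69 in GSK. Emp3, which encodes a membrane protein of the PMP22 family (peak chr7:45921651-45922119), had a Veh LSD1 fold of 6.08. It kept H3K4me3, with folds of 5.20 and 4.65, and had H3K27ac (fold 2.58) and Pol II (fold 3.00) in Veh only. Tigar, a fructose bisphosphatase that limits glycolysis, had a Veh LSD1 fold of 8.41 centred 229 bp upstream of the start site. Its H3K4me3 folds were 8.34 and 8.81 and its Pol II folds 9.45 and 8.06, while H3K4me2 (fold 5.37) was found in Veh only. At 1700084D21Rik the LSD1 fold was 9.39, and H3K4me1 was the one other mark, with folds of 2.83 and 2.92. These 4 strong members therefore differed among themselves, from a Pol II-bound promoter to one without H3K4me3.

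Across all members the nearest GSK LSD1 peak lay a median of 17399 bp from the edge of the window. It was within 1000 bp at 109 members (7.65%) and within 10000 bp at 484 (34.0%). Among the members, 62 of the 1249 genes (4.96%) had another promoter with LSD1 in both lists. Only 317 of the 1249 genes (25.4%) had more than 1 promoter window, so for the rest this was not possible. Closest to the rule from inside were Carlr, whose window touched the GSK peak with a gap of 0 bp, AI854703 (21 bp), Rara (26 bp) and Tmem198b (32 bp), and by strength Gm5420, G6bos, Mpig6b and Ndufb4, each with a Veh -log10 p of 3.03. Closest from outside were Tor4a, where a GSK peak covered 6 bp of the window, Hnrnph1 (20 bp), 5033406O09Rik (22 bp) and 2310069B03Rik (24 bp), and by strength Thegl, with a GSK -log10 p of 3.10, and Zfp459 (3.13).

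The Veh peaks of members were narrower. The median width of the strongest peak was 424 bp at members and 617 bp at promoters that kept LSD1, and the peaks covered a median of 404 bp and 626 bp of the window. Their position was alike. The summit lay a median of 268 bp from the start site in both groups and was within 250 bp of it at 47.9% of members (interval 45.3 to 50.5) and 47.2% of kept promoters (46.2 to 48.2). A start site on the opposite strand within 1000 bp was present at 18.1% of members (16.2 to 20.2) and 26.5% of kept promoters (25.6 to 27.3).

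CpG content, which the rule did not use, separated members from the promoters that kept LSD1. The observed over expected CpG of the window, which is 1 where CpG occurs as often as its bases predict, had a median of 0.510 at members. It was 0.677 where LSD1 was in both lists, 0.595 where it was in GSK only and 0.239 at promoters without LSD1. A ratio under 0.35, here called CpG-poor, was found at 351 members (24.6%, interval 22.5 to 26.9) and at 350 kept promoters (3.60%, 3.25 to 3.99). Members thus lay between the CpG-rich kept promoters and the mostly CpG-poor promoters without LSD1. The GC content differed less, with medians of 51.7% and 55.4%.

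Read the other way, the share of Veh-bound promoters that were members was 56.5% (49.7 to 63.1) under a CpG ratio of 0.2, 47.4% from 0.2 to 0.35, 25.2% from 0.35 to 0.5, 13.3% from 0.5 to 0.65, 6.64% from 0.65 to 0.8 and 2.85% (2.21 to 3.67) from 0.8. The order was the same within peaks of like strength. For Veh peaks with a -log10 p under 6 the share went from 71.8% in the lowest CpG class to 6.59% in the highest, and for stronger peaks from 47.3% to 1.82%. Leaving out the edge set gave 55.4% and 2.71% at the 2 ends. The reverse share, GSK-bound promoters without a Veh peak, was 46.4%, 48.4%, 38.5%, 26.7%, 19.4% and 13.6% over the same classes. Its span was smaller, and in the lowest class its interval (39.1 to 54.0) overlapped that of the members' share.

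Repeats went with CpG content. Of the 1125 distinct strongest peaks of members, 62 (5.51%, interval 4.32 to 7.00) had a summit region of 201 bp that was at least 50% repeat-masked, against 230 of 7205 (3.19%, 2.81 to 3.62) at kept promoters. Within CpG-poor promoters the values were 10.5% and 11.5%, with overlapping intervals.

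The letters of 12 short motifs were searched on both strands in the 201 bp around the summit. The RUNX letters TGTGGTT were found in 68 of the 1125 member peaks (6.04%, interval 4.80 to 7.59) and in 2.91% (2.55 to 3.33) of the 7205 kept peaks, and in 2.91% of all promoters at the start site. The TCF/LEF letters CTTTGAT were found in 2.04% (1.37 to 3.05) against 0.902% (0.708 to 1.15), and in 1.79% of all promoters. Among promoters with a CpG ratio under 0.5 the RUNX shares were 9.57% (7.45 to 12.2) and 6.22% (4.94 to 7.79), with overlapping intervals, and the TCF/LEF shares 3.42% (2.224 to 5.22) and 1.35% (0.821 to 2.218), with intervals that nearly met. RUNX3 and TCF7 are central T cell factors, but a run of 7 letters does not show which factor was bound.

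The GC-rich SP and KLF letters GGGCGGGG were less frequent in members, with 10.0% (8.42 to 11.9) against 14.2% (13.4 to 14.98), and remained so under a CpG ratio of 0.5 with 6.32% against 11.5%. They were in 17.5% of all promoters. For the IRF letters GAAANNGAA (5.24% against 3.25%, 4.77% of all promoters) and the NFY letters CCAAT (17.3% against 13.0%, 26.8% of all promoters) the difference was not seen among promoters with a CpG ratio under 0.5, where the shares were 6.15% and 6.13%, and 16.8% and 16.9%. AP-1 letters TGANTCA were in 4.44% and 3.19%, with overlapping intervals, and in 4.37% of all promoters. The GFI1 core TAAATCNC was found in 0.80% (0.421 to 1.51) of member peaks, 0.694% (0.527 to 0.914) of kept peaks and 1.19% of all promoters. The ZEB E-box CACCTG (19.1% and 17.1%, 14.2% of all), the ETS letters CCGGAAG (9.16% and 9.58%, 8.61% of all), YY1 AAGATGGC (1.69% and 2.07%, 2.60% of all), CRE TGACGTCA (1.33% and 1.55%, 1.86% of all) and NRF1 CGCATGCG (0.889% and 0.833%, 1.65% of all) had overlapping intervals in the 2 groups of peaks. No searched motif contains another, and matches of different motifs that overlap were each counted.

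The other 10 peak lists were not used by the rule. In Veh, members differed from promoters that kept LSD1 for all 5 other antibodies. H3K4me1 lay at 53.2% of members and 47.1% of kept promoters, a difference of 6.09 percentage points (interval 3.31 to 8.85). H3K4me2 lay at 62.2% against 75.3% (-13.1, -15.8 to -10.5) and H3K4me3 at 81.8% against 96.8% (-15.03, -17.1 to -13.1). H3K27ac lay at 30.6% against 43.4% (-12.8, -15.4 to -10.2) and Pol II at 41.8% against 59.9% (-18.2, -20.9 to -15.4). Beside kept promoters, members thus more often had H3K4me1 and less often H3K4me2 and the marks of active start sites. Promoters with LSD1 in GSK only had H3K4me1 in Veh at 48.8%, H3K4me2 at 66.7% and H3K4me3 at 85.5%. H3K27ac lay at 34.8% of them and Pol II at 46.9%, so each of their shares fell between those of members and kept promoters.

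CpG content moved with the H3K4me1 difference. Within CpG-poor promoters H3K4me1 was less frequent at members, at 62.1% against 74.9% (-12.7, -19.5 to -5.88). From a ratio of 0.35 to 0.65 the difference was -3.03 (-6.91 to 0.818) and from 0.65 it was 3.46 (-2.04 to 9.15). So the higher H3K4me1 share of members was not found inside any CpG class beyond counting error. The Pol II difference was present in all 3 classes, at -18.1, -10.9 and -17.2 percentage points, and the H3K4me3 difference at -18.5, -7.62 and -10.6. For H3K4me2 and H3K27ac the difference was not seen beyond counting error from a ratio of 0.65. The H3K4me2 values were -12.7, -13.9 and -1.18 (-6.57 to 3.71). The H3K27ac values were -21.2, -8.79 and -3.93 (-9.50 to 1.77).

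In Veh, 664 members (46.6%) had H3K4me3 together with H3K27ac or Pol II, against 64.3% of kept promoters. H3K4me3 without both was found at 502 members (35.2%) and 32.6% of kept promoters. H3K4me1 or H3K4me2 without H3K4me3 was found at 149 members (10.5%, interval 8.97 to 12.2) and at 2.57% (2.28 to 2.91) of kept promoters. None of the 5 was found at 107 members (7.51%) and at 46 kept promoters (0.474%). Put as the share of Veh-bound promoters that were members, these states gave 9.61%, 13.7%, 37.3% and 69.9% (62.3 to 76.6). Promoters where LSD1 stood alone in Veh were those that most often lacked it in GSK.

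Between treatments the members' other peaks moved in different directions by antibody, and the lengths of the lists moved with them. For H3K4me2, 886 members (62.2%) had a peak in Veh and 570 (40%) in GSK. It was in Veh only at 351 members (24.6%) and in GSK only at 35 (2.46%), where 12.8% and 1.92% of all promoters did so. The net value, GSK only minus Veh only, was -22.2 percentage points at members (interval -23.5 to -20.4) and -18.2 (-18.8 to -17.4) at kept promoters. The H3K4me2 list held 15219 peaks in Veh and 9437 in GSK. With both lists shortened to the same number of strongest peaks, the net value at members turned to 0.772 (-1.62 to 3.14).

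H3K27ac lay at 436 members (30.6%) in Veh and 141 (9.89%) in GSK. It was in Veh only at 298 members (20.9%) and in GSK only at 3 (0.211%), beside 12.1% and 0.335% of all promoters. The net value was -20.7 (-21.0 to -19.9) at members and -23.8 (-24.1 to -23.4) at kept promoters. The lists held 7410 and 2751 peaks, and with lists of equal length the net value was -2.88 (-4.29 to -1.31) at members and -0.268 (-1.0 to 0.467) at kept promoters. Most of the difference between treatments in H3K27ac was therefore not seen with lists of equal length. The Veh H3K27ac library was also the much deeper one.

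H3K4me1 moved the other way. It lay at 758 members (53.2%) in Veh and 877 (61.5%) in GSK, with 81 in Veh only (5.68%) and 200 in GSK only (14.04%), beside 3.50% and 9.78% of all promoters. The net value was 8.35 (6.16 to 10.3) at members and 10.7 (9.82 to 11.5) at kept promoters. The lists held 34387 and 40272 peaks, and with equal lengths the net value at members was 0.632 (-1.69 to 2.94) and at kept promoters 3.15 (2.23 to 4.06). Among promoters without H3K4me1 in Veh, 29.98% of members and 31.8% of kept promoters had it in GSK, a difference of -1.82 (-5.41 to 1.98).

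H3K4me3 hardly moved. It lay at 1166 members (81.8%) in Veh and 1188 (83.4%) in GSK, with 18 in Veh only (1.26%) and 40 in GSK only (2.81%), beside 0.351% and 1.52% of all promoters. The net value was 1.54 (0.504 to 2.39) at members, 1.23 (1.07 to 1.31) at kept promoters, and 0.140 (-0.826 to 1.09) at members with lists of equal length.

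Pol II lay at 595 members (41.8%) in Veh and 481 (33.8%) in GSK, with 173 in Veh only (12.1%) and 59 in GSK only (4.14%), beside 7.08% and 2.84% of all promoters. The net value was -8.00 (-9.68 to -6.06) at members and -7.75 (-8.50 to -6.97) at kept promoters. The 2 Pol II lists were of similar length, 15638 and 15401 peaks, and equal lengths left the net value at members at -8.00. The GSK Pol II library was the deeper one.

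**Figure D2:**
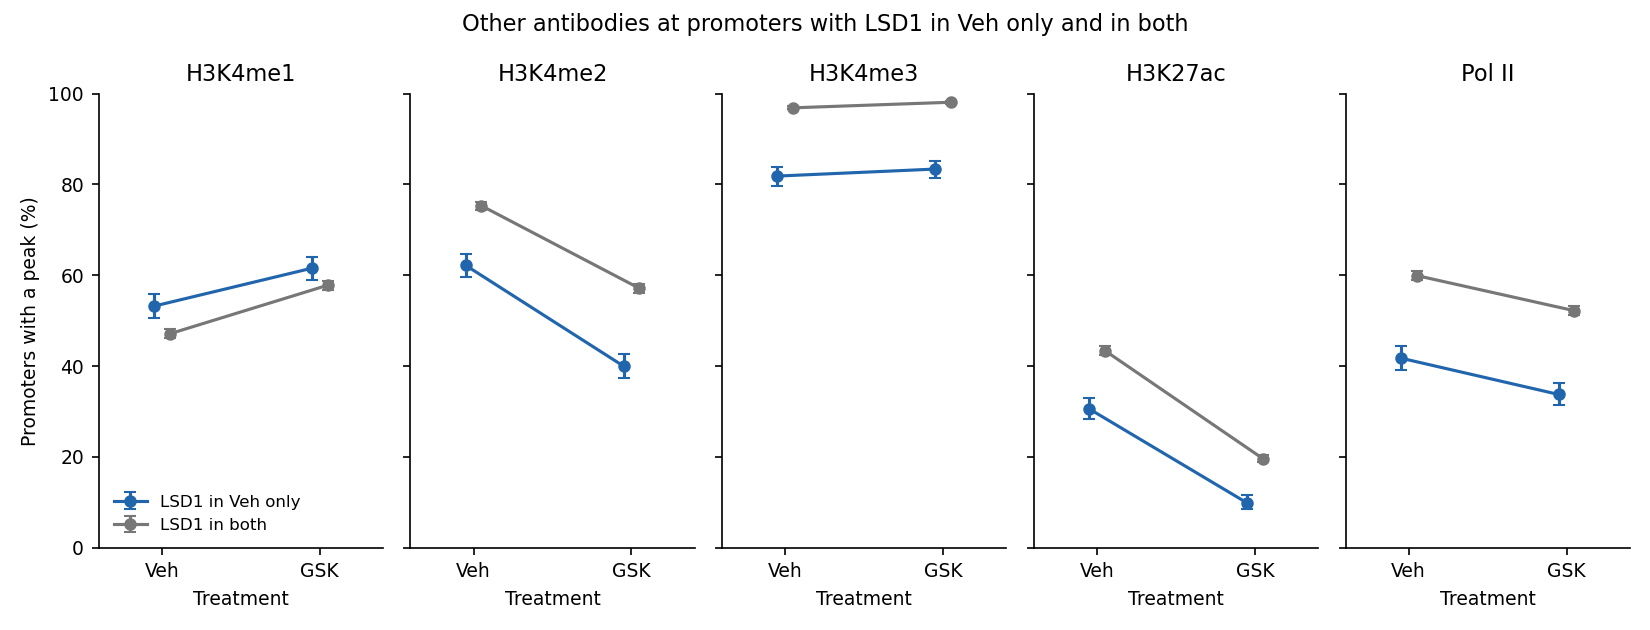
Percent of promoters with a peak of each of 5 antibodies in Veh and in GSK, for the 1425 promoters with LSD1 in Veh only (blue) and the 9714 with LSD1 in both lists (grey); bars are Wilson 95% intervals and lines join the treatments. Members lie under the kept promoters for H3K4me2, H3K4me3, H3K27ac and Pol II and over them for H3K4me1, and the lines of the 2 groups run in the same direction in every panel.

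Between treatments, members differed from kept promoters in how many Veh peaks of the other antibodies were found again in GSK. H3K4me2 was found again at 60.4% of members that had it (interval 57.1 to 63.6) and at 71.1% of kept promoters, a difference of -10.7 percentage points (-14.1 to -7.33). H3K27ac was found again at 31.7% and 43.6% (-11.9, -16.4 to -7.18), and Pol II at 70.9% and 78.4% (-7.49, -11.4 to -3.82). H3K4me3 was found again at 98.5% and 99.9% (-1.45, -2.33 to -0.877) and H3K4me1 at 89.3% and 87.0% (2.34, -0.241 to 4.58). Lists of equal length gave 73.9% and 81.7% for H3K4me2 and 52.2% and 65.1% for H3K27ac, so these differences kept their direction. For Pol II the lists were of similar length from the start, so the setting could hardly change its 70.9% and 78.4%. Within CpG classes the differences in peaks found again were not uniform. For H3K27ac the difference was -19.9 (-30.5 to -7.70) in CpG-poor promoters, -9.10 (-15.0 to -2.39) from 0.35 to 0.65 and -0.327 (-8.73 to 8.15) from a ratio of 0.65. For Pol II it was -14.1 (-25.6 to -2.62), -4.62 (-9.96 to 0.370) and 2.15 (-4.89 to 7.48). For H3K4me2 it was -9.28 (-19.7 to 1.38), -6.68 (-11.2 to -2.33) and -10.4 (-17.0 to -4.05). The lower shares were not particular to members. At promoters with LSD1 in GSK only, H3K4me2 was found again at 64.7% (62.6 to 66.7) and H3K27ac at 37.9% (35.02 to 40.8). Pol II was found again there at 74.3% (72.03 to 76.5), and these 3 intervals overlapped those of members. Promoters without LSD1 in either list had 53.2%, 29.5% and 58.5%. The strength of the Veh peaks of these antibodies was not matched between the groups.

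Counted per promoter, 736 members had none of the other 5 antibodies in Veh only, 496 had 1, 154 had 2 and 39 had 3. In GSK only, 1115 had none, 283 had 1 and 27 had 2. This count was not made for other promoters, so it does not show a trait of members. Antibody by antibody, the Veh-only share at members and kept promoters was 24.6% and 21.8% for H3K4me2 and 20.9% and 24.5% for H3K27ac. For Pol II it was 12.1% and 12.9%, for H3K4me1 5.68% and 6.14% and for H3K4me3 1.26% and 0.0926%. Among the members with 3 in Veh only were Trim26, a TRIM-family ubiquitin ligase, Fut7, a fucosyltransferase, Mvp, the major vault protein, Brat1, Cdk5rap3 and Tmem19. At Trim26 (peak chr17:36837088-36837624), the LSD1 fold was 6.0. Its H3K4me1 (fold 3.94), H3K4me2 (5.07) and H3K27ac (4.14) were in Veh only, while H3K4me3 stayed, with folds of 6.88 and 7.85, and Pol II had folds of 6.90 and 3.72. At Fut7, H3K4me2 (2.92), H3K27ac (3.27) and Pol II (3.40) were in Veh only and H3K4me3 had folds of 2.71 and 2.27. The opposite pattern was seen at Taf1a, a subunit of the Pol I factor SL1, where H3K4me1 (3.46) and Pol II (3.43) were in GSK only, and at Gnpda2, a glucosamine-6-phosphate deaminase, where H3K4me1 (4.0) and H3K4me2 (5.39) were. At Plcd3, H3K4me2 (4.95) and H3K4me3 (4.65) were in GSK only.

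The share of members was next read in gene lists, which were drawn up with earlier results of these data known. In 8 T cell lists together, 41 of 181 Veh-bound promoters were members (22.7%, interval 17.2 to 29.3), in 36 genes, against 12.6% (12.02 to 13.3) outside the lists. In the other direction 48 of 188 GSK-bound promoters in these lists had no Veh peak, which is near the 24.4% over all promoters. CpG content again moved with the result. Among CpG-poor promoters the members' share was 48.3% in the T cell lists (28 of 58) and 50.2% outside, from 0.35 to 0.65 it was 16.3% and 16.6%, and from 0.65 it was 7.50% and 5.29%, all with overlapping intervals. At like CpG content, T cell promoters were thus not set apart from other promoters beyond counting error.

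Among the T cell lists the share was highest for inhibitory receptors, with 5 of 7 Veh-bound promoters (71.4%, interval 35.9 to 91.8). In the reverse direction 4 of the 6 GSK-bound promoters of this list had no Veh peak (66.7%), so few of its promoters had LSD1 in both lists. The 5 were Havcr2, Entpd1, Lilrb4a, Cd200r1 and Cd244a, while Tigit and Cd274 had LSD1 in both lists. T cell receptor signalling and co-stimulation followed with 11 of 32 (34.4%, 20.4 to 51.7) in 8 genes, the coreceptor genes Cd8a and Cd8b1 and Cd5, Icos, Themis, Dgka, Dgkz and Grb2. Lck, Zap70, Lat, Plcg1 and Vav1, which act downstream of the receptor, had LSD1 in both lists. Effector molecules and cytokines gave 4 of 13 (Gzmc, Xcl1, Tnfsf8 and Csf2), with Gzmb, Prf1, Ifng, Nkg7 and Ccl4 in both. Chemokine receptors and trafficking molecules gave 4 of 13 (Itgb7, Cd44, Ccr4 and Ccr6) and none of 9 GSK-bound promoters of this list was without a Veh peak. Memory and progenitor genes gave 4 of 14, among them Ccr7 and 2 start sites of Lef1 that belong to the edge set. Without that edge set the list holds 2 members.

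Of 65 Veh-bound promoters of T cell transcription factors 7 were members (10.8%, 5.32 to 20.6), near the 12.8% of all Veh-bound promoters. They were Runx3, Irf2, Ikzf2, Tcf3, Batf, Myc and Fosb. LSD1 was in both lists at Tbx21, Eomes, Runx1, Ets1, Zeb2, Bhlhe40, Stat3, Irf1, Tox and Gfi1, which recruits LSD1 in other cells. Cytokine receptors gave 4 of 29 (13.8%), with Il12rb1, Il12rb2 and 2 start sites of Il1r2, and the TNF receptor family gave 2 of 8, Tnfrsf1b and Fas. Of the 35 Veh-bound promoters of LSD1 complex and H3K4 enzyme genes, including Kdm1a itself, 0 were members, which allows a share of up to 9.89% by the Wilson interval.

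**Figure D3:**
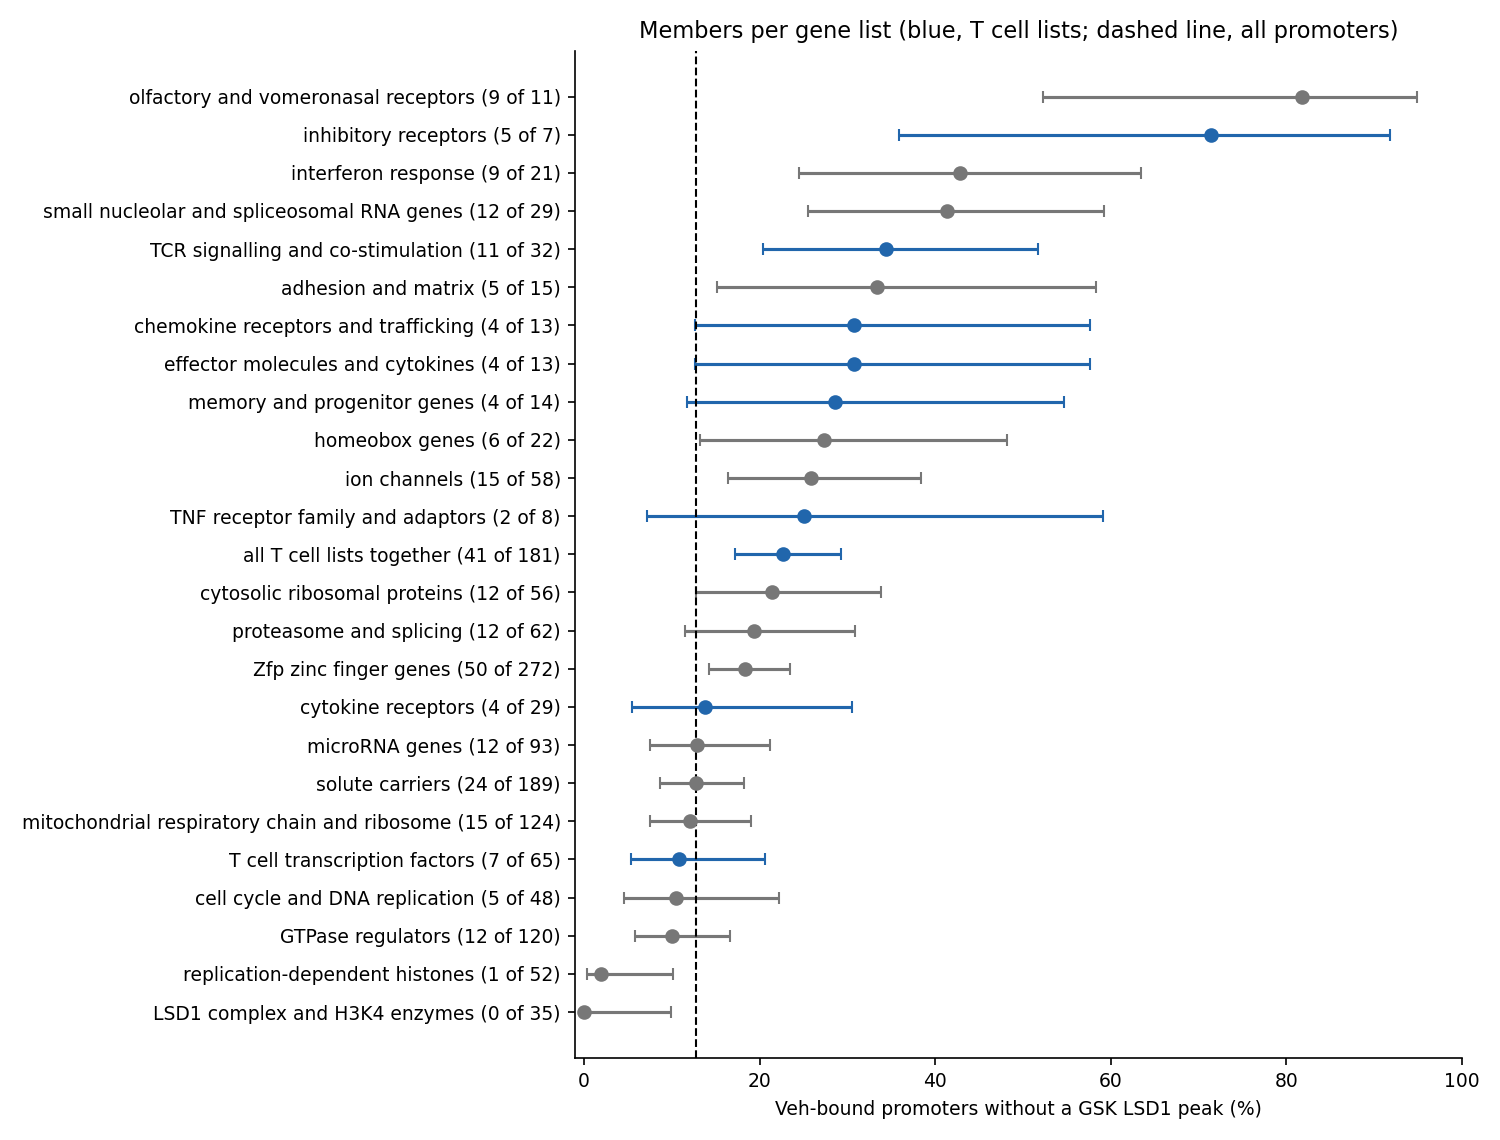
Percent of the Veh-bound promoters of each gene list that had no GSK LSD1 peak, with Wilson 95% intervals; numbers in brackets are members and Veh-bound promoters, blue marks T cell lists and the dashed line marks the 12.8% over all promoters. Inhibitory receptors (5 of 7), interferon response genes (9 of 21) and T cell receptor signalling (11 of 32) lie right of the line with their whole interval. So do olfactory and vomeronasal receptors (9 of 11), small nucleolar and spliceosomal RNA genes (12 of 29) and adhesion and matrix genes (5 of 15). Homeobox genes (6 of 22), ion channels (15 of 58), the T cell lists together (41 of 181) and Zfp genes (50 of 272) do as well. LSD1 complex genes (0 of 35) and histone genes (1 of 52) lie left of it. The lists are not matched for CpG content, and the intervals treat windows of the same gene as independent.

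At the T cell members the Veh peaks of H3K4me3, H3K4me1 and Pol II were mostly found again in GSK, and those of H3K27ac and H3K4me2 mostly were not. H3K4me3 lay at 37 of the 41 windows in Veh and 38 in GSK, and the 1 window that differed was Xcl1. H3K27ac lay at 13 windows in Veh and 2 in GSK, with 11 in Veh only. H3K4me2 lay at 14 and 5, with 9 in Veh only and 0 in GSK only. H3K4me1 lay at 22 and 25, in Veh only at Ccr7 and in GSK only at Itgb7, Cd200r1, Cd44 and Fosb. Pol II lay at 15 and 14, in Veh only at Tnfsf8 and Tnfrsf1b and in GSK only at Fosb. The 140 promoters of the T cell lists that kept LSD1 had H3K27ac at 73 windows in Veh and 29 in GSK and H3K4me2 at 77 and 49, the same direction in both groups.

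By -log10 p the strongest T cell member was Itgb7, the β7 integrin chain used for homing to the gut. Its Veh LSD1 peak (chr15:102230825-102231228) stood at a fold of 5.96 with 19.2 in -log10 p, and the nearest GSK LSD1 peak lay 5459 bp from the window. H3K4me3 stood at 4.01 in Veh and 3.83 in GSK, H3K4me1 at 2.67 in GSK only, and no H3K27ac or Pol II peak was found. Ccr7, which guides naive and memory cells to lymph nodes, had a Veh LSD1 fold of 4.09 in its first intron (chr11:99153976-99154437). Its Pol II folds were 13.7 and 10.7, the highest of the T cell members, and its H3K4me3 folds 3.07 and 3.06. H3K4me1 (fold 3.88) was in Veh only.

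Both chains of the CD8 coreceptor were members. Cd8a had a Veh LSD1 fold of 4.64 in the first intron (chr6:71374021-71374311), with H3K4me1 at 3.43 and 2.54 and H3K4me3 at 3.50 and 3.24. Cd8b1 had a fold of 3.07 upstream (chr6:71322143-71322771), with H3K4me3 at 3.10 and 3.01, Pol II at 6.05 and 5.44 and H3K27ac at 3.08 in Veh only. The nearest GSK LSD1 peaks lay 11094 bp and 17384 bp from these windows. Icos, a co-stimulatory receptor, had an LSD1 fold of 4.04 26 bp upstream of its start site, H3K4me3 at 4.28 and 4.06 and Pol II at 7.81 and 5.75. Themis, needed for T cell receptor signalling during selection, had 2 start sites under 1 LSD1 peak of fold 4.92, Pol II at 5.86 and 4.97 and H3K4me2 (3.47) in Veh only. In all of these LSD1 was missing from the GSK list while Pol II, where present, was found in both.

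The member windows of inhibitory receptor genes had no Pol II peak in either list, which does not speak for other genes of that list. Havcr2, the inhibitory receptor TIM-3 (peak chr11:46454528-46454947), had LSD1 at 3.83 centred 20 bp from the start site, H3K4me1 at 3.27 and 2.45 and H3K4me3 at 4.10 and 4.45, without Pol II or H3K27ac. Lilrb4a, an inhibitory leukocyte receptor, had LSD1 at 4.42, H3K4me3 at 5.43 and 5.74 and H3K4me2 (4.49) in Veh only. Cd200r1, the receptor for CD200, had LSD1 at 4.30 and the largest H3K4me3 fold of the T cell members, 7.67 in Veh and 5.79 in GSK. Its H3K4me2 (4.11) was in Veh only and its H3K4me1 (4.11) in GSK only. Cd244a, which encodes 2B4, had LSD1 at 3.06 and H3K4me1 at 2.95 and 2.41 alone. Entpd1, the ectonucleotidase CD39, had LSD1 at 3.30, but a GSK LSD1 peak began 387 bp beyond its window. Gzmc, a granzyme, had LSD1 at 5.97 centred 38 bp upstream (chr14:56234436-56234922), H3K4me1 at 5.17 and 4.55 and none of the other 4. Xcl1, a chemokine for cross-presenting dendritic cells, had LSD1 at 5.82, H3K4me1 at 4.73 and 4.55 and H3K4me3 (4.12) in GSK only. Csf2, which encodes GM-CSF, had LSD1 at 4.37, H3K4me1 at 4.08 and 3.84 and H3K4me3 at 5.12 and 5.04. Gzmc, Cd244a and Ccr6 were the T cell members with H3K4me1 in both lists and no H3K4me3 in either.

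Several transcription factor members lay close to a GSK peak. Runx3, which sets the CD8 lineage and cytotoxic programme, had LSD1 at 3.11 (chr4:135120081-135120552), but a GSK LSD1 peak lay 182 bp from the window. It had Pol II at 8.93 and 6.75, and H3K27ac (3.02) in Veh only. For Irf2, Tcf3 and Myc the gaps were 104 bp, 307 bp and 767 bp, and Ikzf2 was in the edge set. Myc, the driver of growth after activation, had LSD1 at 2.61, Pol II at 10.4 and 8.61 and H3K27ac (3.23) in Veh only. Batf, the AP-1 factor of activated CD8+ T cells, had a gap of 17347 bp and LSD1 at 3.44, with a -log10 p of 4.72. It had peaks of all 5 other antibodies in Veh and 4 of them in GSK, with H3K4me3 at 6.92 and 6.72, Pol II at 5.05 and 3.66 and H3K27ac (3.49) in Veh only. At Fosb the gap was 8734 bp. Fosb had H3K27ac (5.58) in Veh only and Pol II (5.06) and H3K4me1 (4.19) in GSK only, and was the one T cell member with Pol II in GSK only.

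**Figure D4:**
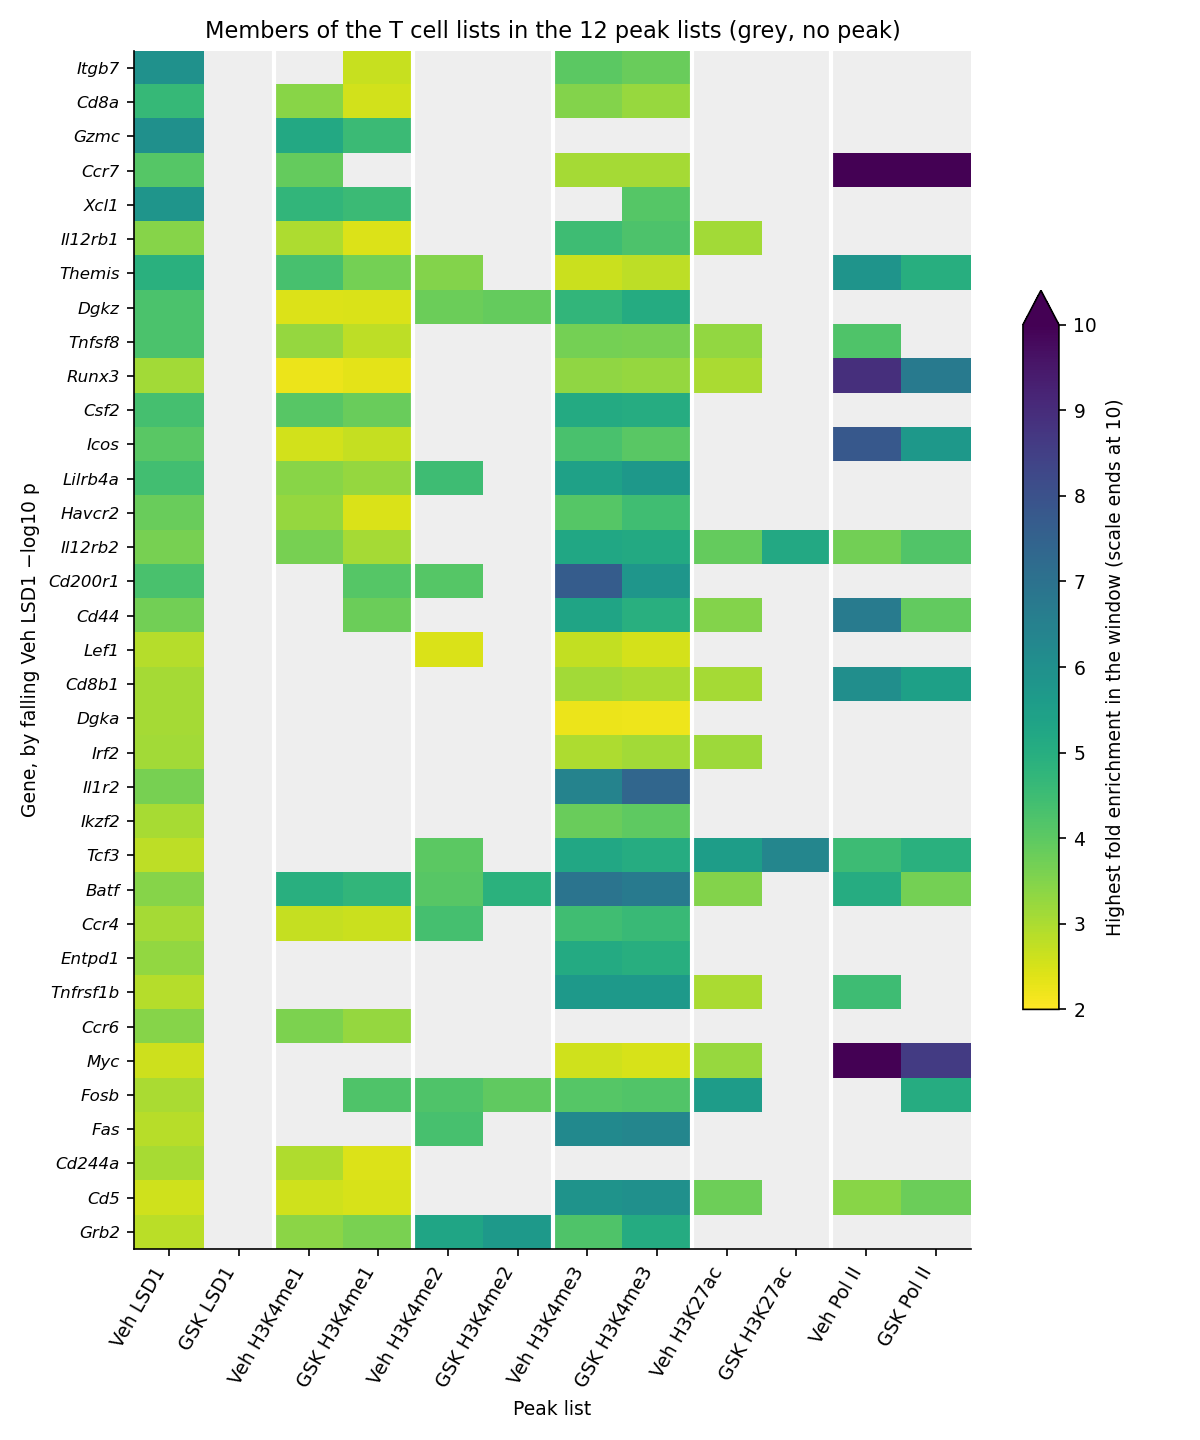
Highest fold enrichment over local background of any peak in the window of each T cell member (1 window per gene, 35 of the 36 genes, in order of falling Veh LSD1 -log10 p) in the 12 peak lists; grey means no peak and the colour scale ends at 10. H3K4me3 is present in both treatments for nearly all genes, H3K27ac is in GSK for Il12rb2 and Tcf3 alone, and Pol II is strongest at Ccr7, Myc and Runx3.

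In the 36 distinct peaks behind the T cell members, the 201 bp around the summit held the GFI1 core at Cd8a and Ccr7, the RUNX letters at Havcr2 and Cd44, the ETS letters at Batf and the AP-1 letters at Cd8b1 and Ccr4. The ZEB E-box was found in 8 of these peaks, among them those of Runx3, Xcl1, Cd8b1 and Myc, and the IRF letters in 6, among them those of Themis, Tnfsf8 and Fas. The 36 peaks are too few to compare these shares with those of other peaks.

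Outside the T cell lists, interferon response genes had 9 of 21 Veh-bound promoters among the members (42.9%, interval 24.5 to 63.5), in 5 genes. The interval treats windows of the same gene as independent. In the other direction 5 of 17 GSK-bound promoters had no Veh peak (29.4%), beside 24.4% over all promoters. The median CpG ratio of the list's members was 0.308. Of CpG-poor Veh-bound promoters outside the T cell lists, 50.2% were members, so this list was not set apart from them. Irf9, the DNA-binding subunit of the interferon-activated ISGF3 complex, had LSD1 at 4.67 (chr14:55603805-55604227), with H3K4me2 (4.13) and H3K27ac (4.87) in Veh only, H3K4me1 (3.39) in GSK only and Pol II at 5.74 and 4.28. Isg20, an antiviral exonuclease, had LSD1 at 4.22 and kept H3K4me1, H3K4me2 and H3K4me3. Oasl2 had LSD1 at 4.41 and kept the same 3 marks, with H3K4me3 at 5.30 and 6.0. Ifit2 had LSD1 at 3.74, H3K27ac at 3.78 and 5.36, and Pol II (4.59) in Veh only. The CpG ratio of these 4 windows lay between 0.205 and 0.308. Stat2, Usp18, Bst2 and Tap1 had LSD1 in both lists.

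Among housekeeping lists, mitochondrial respiratory chain and ribosome genes gave 15 of 124 (12.1%), cell cycle and DNA replication genes 5 of 48 (10.4%) and GTPase regulators 12 of 120 (10.0%), all near the 12.8% over all promoters. Cytosolic ribosomal protein genes gave 12 of 56 (21.4%, 12.7 to 33.8), among them Rps12, Rpl34 and Rpl17, and proteasome and splicing genes 12 of 62 (19.4%, 11.4 to 30.9). Rps12 had LSD1 at 4.97 with Pol II at 10.7 and 7.29, so a member could be a strongly Pol II-bound promoter. Zinc finger genes named Zfp gave 50 of 272 (18.4%, 14.2 to 23.4). Replication-dependent histone genes gave 1 of 52, H2ac18.

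Lists of genes with roles mainly in other tissues were read in both directions. Of 1467 promoters of olfactory and vomeronasal receptor genes 11 had LSD1 in Veh, of which 9 were members (81.8%, 52.3 to 94.9), and 4 had it in GSK, of which 2 had no Veh peak. Ion channel genes gave 15 of 58 (25.9%, 16.3 to 38.4), homeobox genes 6 of 22 and adhesion and matrix genes 5 of 15. Without a Veh peak were 33 of the 76 GSK-bound ion channel promoters (43.4%), 10 of 26 for homeobox genes (38.5%) and 16 of 26 for adhesion and matrix genes (61.5%), beside 24.4% of all GSK-bound promoters. Lhx3, a pituitary and motor neuron factor, had LSD1 at 6.49 and no peak of the other 5 antibodies. Of microRNA genes 12 of 93 were members (12.9%), among them Mir150 and Mir155, which are used in lymphocytes. Mir150 (peak chr7:45121421-45121747) had LSD1 at 4.13, H3K4me1 at 2.98 and 2.89 and Pol II at 5.71 and 5.30, with H3K4me2 (2.89) and H3K27ac (2.74) in Veh only. Small nucleolar RNA genes gave 11 of 22 by annotated type, and also 11 of 22 in the GSK-only direction. Several of them lie in clusters inside host genes, such as Snord49a, Snord49b and Snord65, which share 1 LSD1 peak of fold 5.73. By type of gene, 12.5% of Veh-bound protein-coding promoters and 15.1% (12.7 to 17.8) of lncRNA promoters were members.

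Members were unevenly spread over chromosomes. On the X chromosome 84 of 220 Veh-bound promoters were members (38.2%, interval 32.0 to 44.8), against 1341 of 10919 on the autosomes (12.3%, 11.7 to 12.9), where single chromosomes ranged from 7.05% on chromosome 12 to 16.4% on chromosome 7. Peaks on X were weaker, with a median Veh -log10 p of 5.84 against 7.51, but the difference was present at like strength. For a -log10 p of 3 to 5 the share was 52.6% on X and 29.8% on autosomes, for 5 to 7 it was 35.7% and 15.04%, for 7 to 10 it was 25% and 8.71%, and from 10 it was 20.0% (4 of 20) and 4.10%. The reverse direction did the same, with 112 of 248 GSK-bound promoters on X without a Veh peak (45.2%) against 24.0% on autosomes. Other antibodies followed over all promoters, whether or not LSD1 was there. Veh peaks were found again in GSK less often on X for H3K4me1 (68.7% against 88.4%), H3K4me2 (40.5% against 66.9%), H3K27ac (18.02% against 40.7%) and Pol II (57.4% against 75.3%), and about as often for H3K4me3 (99.8% against 99.3%). None of the 12 lists held a Y-linked peak. The cause of the difference between X and autosomes was not tested. The X-linked members included Hdac6, a cytoplasmic deacetylase, Alg13 and Ndufa1, a complex I subunit with LSD1 at 4.70 and H3K4me3 at 5.09 and 5.26. On autosomes alone the differences of members from kept promoters in Veh were 7.87 percentage points for H3K4me1, -12.02 for H3K4me2, -15.9 for H3K4me3, -12.8 for H3K27ac and -17.2 for Pol II.

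**Figure D5:**
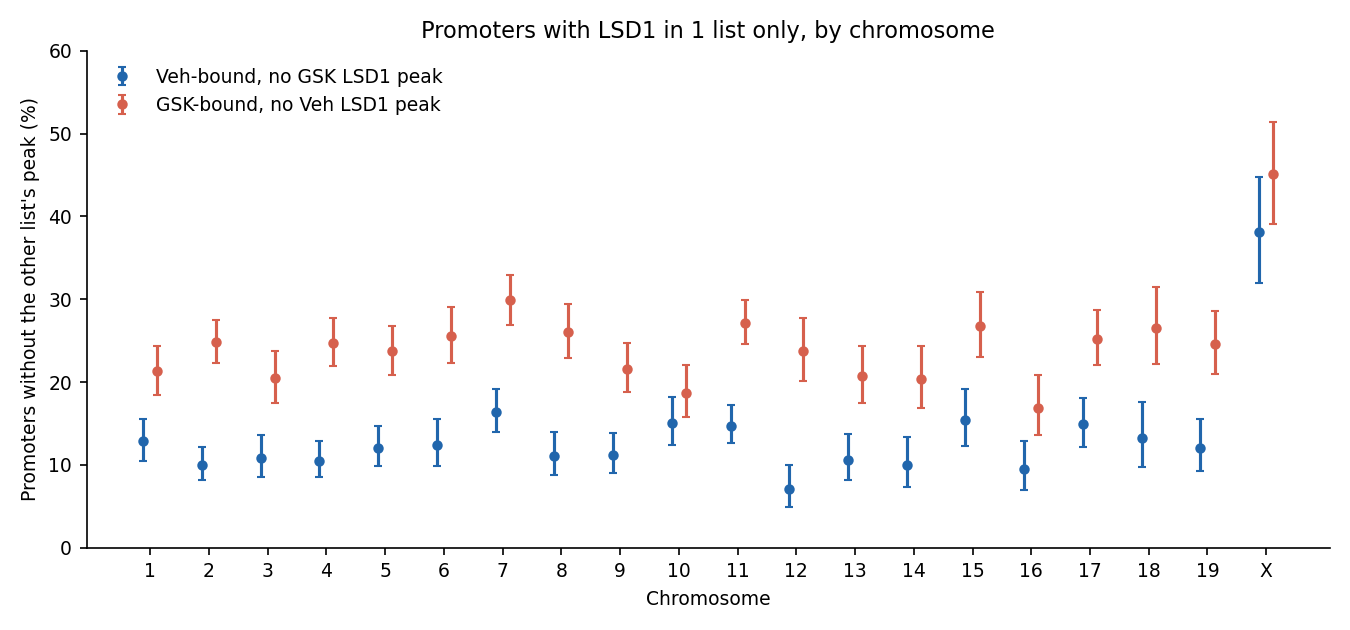
Percent of Veh-bound promoters without a GSK LSD1 peak (blue) and of GSK-bound promoters without a Veh LSD1 peak (red) on each chromosome, with Wilson 95% intervals. On X both shares, 38.2% and 45.2%, lie above those of every autosome, whose blue values run from 7.05% to 16.4%.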

How the data were processed

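ChIP-seq with 6 antibodies in Veh and GSK cells gave 12 libraries with 1 peak list each. The authors aligned reads to mm10 with Bowtie2, removed PCR duplicates and ran MACS2 with a limit on the p-value, giving narrow peaks for LSD1 and Pol II and broad peaks for histone marks. They drew equal numbers of reads per library to compare signal, and whether peaks were called on these draws is not given in the sources used here. Of the deposited columns, fold enrichment over local background (a ratio), -log10 p, -log10 q and the summit were used. The deposited score was not used. Depth cannot be computed from peak lists, so the study's listing of read pairs was used for its direction alone.

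RefSeq start sites and sequence came from GRCm38.p6, the mm10 build. The highest value in a window stands for it. Differences of shares carry Newcombe 95% intervals. Scripts (Python 3.11.15, numpy 2.4.6, pandas 2.3.3, matplotlib 3.10.9) were tested on simulated data. Alternatives changed the window, the overlap, LSD1 limits, list lengths, the edge set and the chromosomes.

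Members and gene lists were chosen with earlier results of these data known. Named were the 12 strongest members, members of the T cell lists, up to 8 with the most other antibodies in 1 treatment only, up to 4 on either side of each limit and up to 4 per other list. Other names were chosen after their values were seen. Results on a few items are not reported here.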

Additional observations from a re-analysis of the deposited data

How the results depend on the processing

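With 1 library per group there is no replicate to leave out, and depth limits which weak peaks were called. No paired analysis was possible because each antibody has 1 library per treatment, and the replicate numbers in the labels belong to the inputs, which have no peak list. Of 156 values under an alternative, 131 moved by less than their counting interval or, for the count, by less than 1.5 times, and 1 turned its sign. That one was the net H3K4me2 value at members, -22.2 percentage points, which became 0.772 with lists of equal length. That setting could not move some of the 131 values. The Veh H3K4me1 and H3K4me3 lists were already the shorter ones, so the Veh shares of these marks stayed as they were. The Pol II lists were of similar length from the start, so their values could hardly move. The same setting moved the net values of H3K4me1 to 0.632, H3K4me3 to 0.140 and H3K27ac to -2.88, the difference in Veh H3K27ac between members and kept promoters from -12.8 to -7.15 and, applied to LSD1, the members' share from 12.8% to 12.1%; the shorter list is the alternative's own construction.

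A Veh LSD1 -log10 p of at least 5 left 923 members, a share of 9.70%, net values of 6.07 (H3K4me1), -25.03 (H3K4me2) and -22.0 (H3K27ac), and differences in Veh of -11.2 (H3K4me3) and -14.3 (Pol II). A -log10 q of at least 2 for LSD1 gave a net H3K27ac of -22.1 and differences of -11.03 (H3K4me3), -9.53 (H3K27ac) and -13.6 (Pol II). Windows of 500 bp on either side gave net values of 5.02 (H3K4me1) and -19.9 (H3K4me2) and differences of -10.4 (H3K4me2) and -12.3 (H3K4me3). Requiring no GSK peak within 1000 bp of the window gave a share of 11.8%, and an overlap of 200 bp for the other antibodies gave a net H3K27ac of -18.5. The difference in median CpG ratio went from -0.167 to -0.146 among LSD1 peaks with a -log10 p under 10. In all of these but the stated one the direction held, and the cause was not tested. Leaving out the edge set, which gave a net H3K27ac of -21.0, and using autosomes only were chosen after seeing the data.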
